A study of Equus caballus with 31 samples.

Results

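The collagen genes were followed in cells from joint (synovial) fluid and in mononuclear cells from blood (PBMC), taken from osteoarthritic (OA) and healthy horses. They were chosen by symbol alone, as every gene named COL, a number, A and a number, which gave 41 of the 18149 genes in the tables. All 41 were in the fluid table and 37 in the PBMC table; COL6A5, COL13A1, COL21A1 and COL26A1 were in the fluid table only. RNA was sequenced from fluid of 5 OA and 11 healthy horses and from PBMC of 6 OA and 9 healthy horses, each library from another animal within its tissue. The OA had arisen naturally, the diagnosis rested on lameness, joint radiographs and the effect of analgesia of the joint, and recently medicated or injected horses were excluded. Both groups are given as WT, and each sample as mixed mononuclear cells; fluid cells were pelleted after hyaluronidase digestion. The labels give no age, sex or batch. By the horse numbers, fluid and blood came from the same animal in 13 cases (5 OA, 8 healthy). Horses keep the label names OA_ and ORC_ with a number.

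Collagens are secreted or membrane proteins built of chains wound into a helix, and each gene encodes a chain. Fibrillar collagens form the cable-like fibrils of tendon, synovium and cartilage, FACIT collagens sit on the surface of those fibrils, network collagens form the sheets of basement membranes, and beaded collagen VI forms fine filaments around cells. Most collagen of the joint is made by fibroblasts and chondrocytes; blood leukocytes make little. The symbols covered 10 fibrillar, 9 network, 5 beaded, 9 FACIT, 4 transmembrane and 2 multiplexin genes, and 2 outside these classes.

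Fluid libraries had a depth of 25.9 to 36.3 M reads, averaging 29.6 ± 3.51 M for OA (SD, n = 5) and 31.7 ± 3.27 M for healthy horses (SD, n = 11). In PBMC the depth was 33.5 ± 1.14 M for OA (SD, n = 6) and 27.5 ± 2.31 M for healthy horses (SD, n = 9). Values are read counts divided by a size factor per library, called normalized read counts here. A change is the OA mean minus the healthy mean on the log2(value + 1) scale with its SE, and a gene rose or fell where its limma p, adjusted over all genes of the table, was below 0.05. Genes with a mean of at least 10 over a table were tested. In these bulk samples, fewer cells of a type and less RNA per cell cannot be told apart.

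Collagen genes of most classes stood higher in OA fluid than in healthy fluid, but the spread between horses was wide. Of 41 genes 34 were tested, and 7 rose in OA (20.6% of those tested, against 14.4% of all 13885 genes tested). These were COL5A1, COL5A2 and COL27A1 of the fibrillar class, COL6A3 of the beaded class, COL4A2 and COL8A1 of the network class and COL16A1 of the FACIT class. COL9A2, a FACIT gene, was the 1 that fell, against 13.6% of all genes. In either direction 8 of 34 were called, against 28.1% of all genes, so the share called was no higher than the background. Changes were above 0 in 24 of 34, against 53.8% of all genes, with a median of 2.70 for the collagen genes and 0.08 for all genes. No tested collagen gene had OA and healthy values that did not overlap, against 3.56% of all genes.

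**Figure D1:**
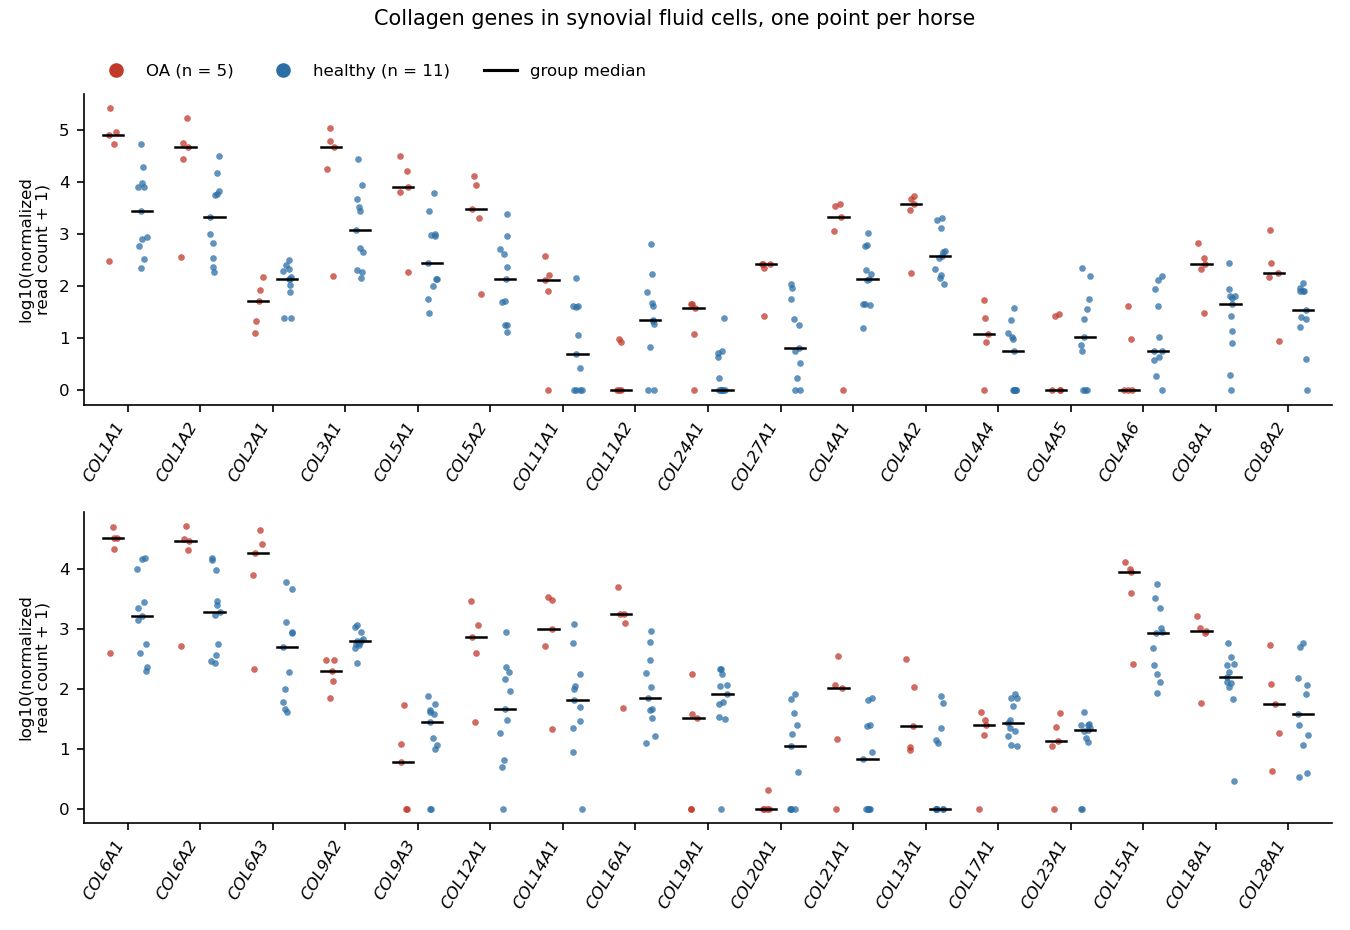
Normalized read count (log10 of the value + 1, y axis) of the 34 collagen genes tested in fluid, ordered by class, with a point per horse for OA (red, n = 5) and healthy horses (blue, n = 11) and a line at each group median. In most fibrillar, beaded and multiplexin genes 4 OA points lie high and 1, OA_9570, lies among the lower healthy points.

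The same few libraries set the range of gene after gene. OA_9570 was the lowest OA library in 21 of the 24 genes with a change above 0, and it lay below the healthy median in 20 of them. In healthy fluid ORC_188 was highest in 11 of the 24 and ORC_205 in another 11. In 10 of the 24 at least 4 OA libraries lay above the highest healthy library. Without OA_9570, 21 collagen genes were called higher and 1 lower (22 of 34, against 33.4% of all genes). Without ORC_188 the counts were 15 and 1 (27.8% of all genes), and without ORC_205 they were 14 and 1 (29.3% of all genes). Without OA_2615, OA_3850 or OA_9350 only COL27A1 and COL9A2 were called, against 18%, 19.8% and 21.3% of all genes. Without OA_1038 COL6A3 was called as well, against 22.9% of all genes. Without ORC_192, ORC_196, ORC_200, ORC_201 or ORC_208 5 were called higher and 1 lower, and these omissions took COL4A2 and COL8A1 below the threshold. Calls over all genes fell as well, to 1651, 1846, 1704, 1620 and 1815 higher in the same order. The genes called lower fell to 1631, 1770, 1698, 1600 and 1760. With every library kept 2006 were higher and 1893 lower. Calls also depended on the model. On the recovered whole reads edgeR called 11 higher and 3 lower (28.7% of all genes in either direction), DESeq2 18 and 3 (33.6%), and limma with a weight per library 21 and 4 (47.8%).

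Summed over all collagen genes, fluid held 291669 normalized reads in OA_1038, 782254 in OA_2615, 337739 in OA_3850, 184502 in OA_9350 and 3344 in OA_9570. In healthy fluid the sum was lowest in ORC_208 at 2676, had a median of 12162 and was highest in ORC_188 at 173237. So by this sum 4 OA libraries lay above every healthy library, OA_9350 narrowly, and the fifth near the healthy minimum. Collagen took 0.00965% to 2.40% of reads in OA and 0.00913% to 0.62% in healthy fluid. By this share OA_9350, at 0.511%, lay below ORC_188, at 0.62%, so its place above every healthy library depended on the size factors.

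**Figure D2:**
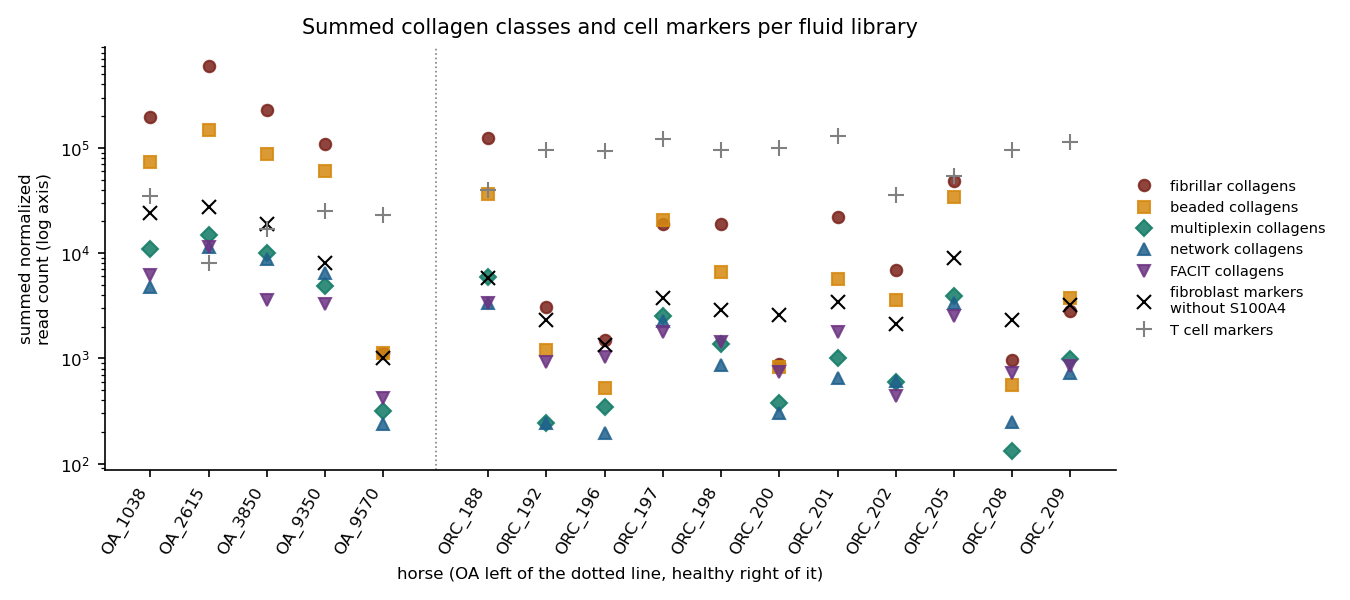
Summed normalized read count (log axis) of 5 collagen classes, of the synovial fibroblast markers without S100A4 (crosses) and of the T cell markers (plus signs) in each fluid library, OA horses left and healthy horses right of the dotted line. OA_9570 stands with the low healthy libraries in each of the 5 classes plotted, and ORC_188 and ORC_205 stand near the OA libraries.

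Among fibrillar genes 3 of 10 rose, with a median change of 3.47. COL5A1 lies on chromosome 25 from 37215389 to 37385117 and COL5A2 on chromosome 18 from 65664728 to 65921385 (all positions are in EquCab3.0, as the tables give them). COL5A1, a chain of the type V collagen that limits the width of type I fibrils, stood at 8148, 32346, 16187, 6425 and 185 in OA_1038, OA_2615, OA_3850, OA_9350 and OA_9570. In healthy fluid it ran from 30.0 in ORC_208 through a median of 275 to 6315 in ORC_188. Thus 4 OA horses lay above all healthy horses, 1 of them narrowly, and OA_9570 lay below the healthy median. The change was 3.92 (SE 1.27, limma adjusted p = 0.0311). Its partner chain COL5A2 stood at 3006, 13328, 8782, 2026 and 71.4 in the OA horses in the same order. The healthy horses ran from 12.3 through a median of 139 to 2435 in ORC_188, which lay above OA_9350. COL5A2 changed by 4.08 (SE 1.32, limma adjusted p = 0.0306). Leaving out OA_1038, OA_2615, OA_3850 or OA_9350 took both below the threshold, with adjusted p of 0.0607 to 0.0999 for COL5A1 and 0.0562 to 0.0984 for COL5A2.

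COL27A1, a fibrillar chain of developing cartilage on chromosome 25 from 19367405 to 19510428, was the fibrillar gene whose call held without any 1 of the 16 libraries. It stood at 262 in OA_1038, 273 in OA_2615, 269 in OA_3850, 227 in OA_9350 and 25.4 in OA_9570. Healthy values ran from 0 in ORC_192 and ORC_202 through a median of 5.66 to 108 in ORC_205. The 4 higher OA values lay within a narrow band above all healthy horses, and OA_9570 lay within the healthy range. The change was 4.10 (SE 1.14, limma adjusted p = 0.0146), and edgeR gave an adjusted p of 0.0505.

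The chains of types I and III, the bulk fibril collagens of tendon and synovium, did not pass the threshold. COL1A1 stood at 80547, 271266, 92966, 53894 and 302 in OA_1038, OA_2615, OA_3850, OA_9350 and OA_9570. In healthy fluid its lowest value was 229 in ORC_200, the median 2768 and the highest 54615 in ORC_188. Here 3 OA horses lay above ORC_188 and OA_9350 just under it. Its change was 3.54 (SE 1.49, limma adjusted p = 0.083). COL1A2, the second chain of type I, changed by 3.41 (limma adjusted p = 0.075) and COL3A1, type III, by 3.58 (limma adjusted p = 0.0736). COL24A1, a minor fibrillar chain, was at 0 in OA_9570 and between 11.3 and 45.6 in the other OA horses, against 0 in 6 of 11 healthy horses and at most 24.1 in ORC_205 (2.85, limma adjusted p = 0.052).

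Fibrillar chains of cartilage did not move together. COL2A1, the type II chain that makes up most cartilage fibrils, stood between 11.6 in OA_3850 and 151 in OA_2615 in OA, against 24.0 to 319 in healthy fluid, a change of -1.37 (limma adjusted p = 0.129). COL11A1, a type XI chain, was at 0 in OA_9570 and at 79.4 to 389 in the other OA horses, while 4 healthy horses were at 0 and ORC_205 reached 146 (3.09, limma adjusted p = 0.114). COL11A2, its partner in type XI, ran the other way, at 0 in 3 OA horses and at most 8.62, against a healthy median of 21.7 and 660 in ORC_192 (-3.28, limma adjusted p = 0.0678). COL11A2 lies on chromosome 20 from 34514579 to 34543630 (EquCab3.0), within the range of BRD2, a chromatin reader gene. BRD2 stood at 13865 ± 2868 in OA and 19400 ± 3926 in healthy fluid (SD, n = 5 and 11). The strand used in counting is not given in the sources used here, so COL11A2 values are uncertain. COL11A2 passed the filter only through the healthy horses, as did COL4A6 and COL20A1, whereas COL24A1 and COL4A4 passed only through the OA horses; such genes had to differ to be tested.

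Of the 8 FACIT genes tested, COL16A1 rose and COL9A2 fell, and the class median was 0.56. COL9A2 encodes a chain of type IX, the collagen that coats cartilage fibrils, and lies on chromosome 2 from 17845820 to 17861048. It stood at 307 in OA_1038, 69.1 in OA_2615, 134 in OA_3850, 197.6 in OA_9350 and 297 in OA_9570, against 273 in ORC_202, a median of 615 and 1154 in ORC_201 in healthy fluid. All OA horses were below the other 10 healthy horses, and OA_1038 and OA_9570 lay just above ORC_202. The change was -1.84 (SE 0.35, limma adjusted p = 0.00183), and it held without any 1 library and under the 10 other settings tried. COL9A2 also had the smallest healthy spread of the tested collagen genes, with a log2 SD of 0.58. COL9A3, another type IX chain, changed by -1.58 (limma adjusted p = 0.319), and COL9A1 was at 0 in all OA horses and at most 3.45 in healthy horses.

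COL16A1, a FACIT chain of skin and cartilage on chromosome 2 from 24968166 to 25016843, stood at 1751, 4938, 1251, 1761 and 47.0 in OA_1038, OA_2615, OA_3850, OA_9350 and OA_9570. Healthy fluid ran from 11.5 in ORC_200 through a median of 69.6 to 917 in ORC_205. Again 4 OA horses lay above every healthy horse and OA_9570 below the healthy median. The change was 3.44 (SE 1.08, limma adjusted p = 0.0263), with adjusted p of 0.058 to 0.0861 without OA_1038, OA_2615, OA_3850 or OA_9350. COL12A1 and COL14A1, which decorate type I fibrils, changed by 3.60 (limma adjusted p = 0.0563) and 3.49 (limma adjusted p = 0.0726). COL19A1, found at basement membrane zones, stood at 0 in OA_2615 and OA_9350 and at most at 174 in OA_1038, against a healthy median of 81.2 (-2.34, limma adjusted p = 0.171). COL20A1 had a value of 1.06 in OA_3850 and 0 in the other OA horses, against 0 to 80.5 in healthy fluid (limma adjusted p = 0.0978), and it overlaps ARFGAP1, so its values are uncertain.

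All 3 tested beaded genes, the main chains of type VI, had changes above 0, and COL6A3 passed the threshold. COL6A3, the longest type VI chain, lies on chromosome 6 from 23386063 to 23470913. It stood at 7815 in OA_1038, 45399 in OA_2615, 25974 in OA_3850, 18364 in OA_9350 and 210 in OA_9570. In healthy fluid its lowest value was 39.5 in ORC_196, the median 494 and the highest 6128 in ORC_188. The 4 higher OA horses exceeded all healthy horses. Its change was 4.39 (SE 1.35, limma adjusted p = 0.0247), the largest among the collagen genes in fluid, and the adjusted p lay between 0.0598 and 0.0801 without OA_2615, OA_3850 or OA_9350. COL6A1 and COL6A2 also had 4 OA horses above every healthy horse. COL6A1 ran from 393 in OA_9570 to 50279 in OA_2615, against 198.2 to 15028 in healthy fluid (2.997, limma adjusted p = 0.0749). COL6A2 ran from 513 in OA_9570 to 52256 in OA_2615, against 272 to 15185 in healthy fluid (2.92, limma adjusted p = 0.0682). COL6A5 and COL6A6 were too low to test.

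In the network class COL4A2 and COL8A1 rose, 2 of 7 tested. COL4A2, a main chain of basement membranes, lies on chromosome 17 from 77582897 to 77786110. It stood at 2924, 5508, 4877, 3820 and 179 in OA_1038, OA_2615, OA_3850, OA_9350 and OA_9570. Healthy fluid ran from 110 in ORC_196 through a median of 383 to 2026 in ORC_205. The 4 higher OA horses were above all healthy horses. The change was 2.38 (SE 0.82, limma adjusted p = 0.0398). The call was lost without 10 of the 16 libraries, among them each of the 4 higher OA horses and ORC_192, ORC_196, ORC_200, ORC_201, ORC_208 and ORC_209, with adjusted p of 0.0558 to 0.113, and with values scaled to equal totals (0.0566). COL4A2 overlaps an unnamed gene on chromosome 17, which changed by 0.57 (limma adjusted p = 0.364). COL4A1, its partner, lies beside COL4A2 with 24 bases between them, and it was at 0 in OA_9570 and at 1183 to 3880 in the other OA horses, against 14.5 to 1051 in healthy fluid (1.88, limma adjusted p = 0.38).

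COL8A1, a short-chain network collagen of vessel walls and the cornea, lies on chromosome 19 from 58272344 to 58322869. It stood at 266, 682, 213, 351 and 29.4 in OA_1038, OA_2615, OA_3850, OA_9350 and OA_9570. Healthy fluid ran from 0 in ORC_202 through a median of 45.8 to 278 in ORC_205. Of the OA horses 2 lay above ORC_205. The change was 3.11 (SE 1.12, limma adjusted p = 0.0451). It was lost without 9 libraries, namely the 4 higher OA horses and ORC_192, ORC_196, ORC_200, ORC_201 and ORC_208 (adjusted p of 0.054 to 0.125), with a pseudocount of 0.5 (0.054), with no filter (0.0541), with equal totals (0.057) and with edgeR (0.0643). COL8A2 changed by 2.46 (limma adjusted p = 0.106). The X-linked chains COL4A5 and COL4A6 changed by -1.66 and -1.89 (limma adjusted p = 0.388 and 0.282). COL10A1, a marker of hypertrophic cartilage, was at 0 in all OA horses and at most 4.04 in healthy fluid, below the filter.

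Neither multiplexin gene passed the threshold. COL15A1, a proteoglycan-like collagen of basement membrane zones, stood at 10036, 13220, 8951, 3965 and 258 in OA_1038, OA_2615, OA_3850, OA_9350 and OA_9570. In healthy fluid it ran from 84.6 in ORC_196 through a median of 841 to 5713 in ORC_188. Of the OA horses 3 lay above all healthy horses (2.69, limma adjusted p = 0.0608). COL18A1, the source of endostatin, ran from 56.7 in OA_9570 to 1641 in OA_2615, against 1.94 to 570 in healthy fluid (2.24, limma adjusted p = 0.0893). The summed transmembrane genes did not follow the other classes: OA_9570 held 101, above OA_1038 and OA_3850 at 37.0 and 61.4, against 28.4 to 126 in healthy fluid. Of these genes COL13A1, a collagen of cell contacts, ran from 8.62 to 317 in OA and 0 to 75.4 in healthy fluid (3.07, limma adjusted p = 0.0806), while COL17A1, of epithelial anchoring plaques, and COL23A1 changed by -1.08 and -0.23 (limma adjusted p = 0.326 and 0.882). COL17A1 lies within the range of CFAP43, which changed by -1.57 (limma adjusted p = 0.273), so its values are uncertain. COL28A1, outside the classes, ran from 3.18 to 547 in OA and 2.30 to 582 in healthy fluid, with a change of 0.19 (limma adjusted p = 0.921).

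**Figure D3:**
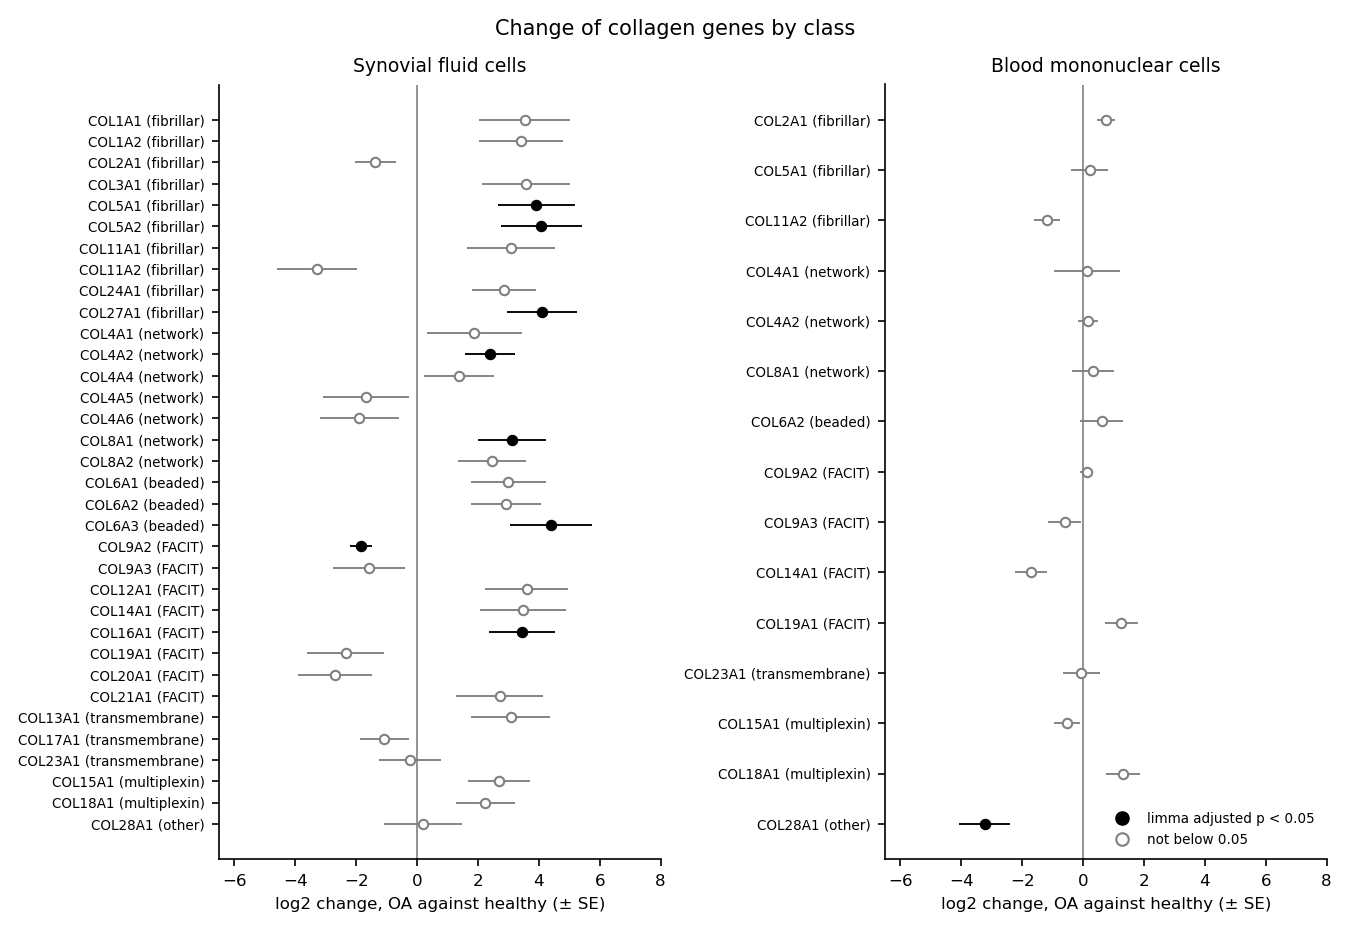
Log2 change of OA against healthy (x axis, points with SE bars) for each tested collagen gene, with its class, in fluid (left) and PBMC (right); filled points have a limma adjusted p below 0.05. In fluid 24 of 34 points lie above 0 with long bars, and COL9A2 lies below 0 with a short bar; in PBMC 14 of the 15 points are open.

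Between healthy horses alone, the collagen genes of fluid varied more than the typical gene. The median log2 SD of the 34 tested genes was 2.54 in OA and 2.44 in healthy fluid, against 0.58 in OA and 0.54 in healthy fluid for all genes tested. Among the 34 the healthy SD ran from 0.58 in COL9A2 to 2.87 in COL12A1. In all, 13 collagen genes had at least 10 reads in every fluid library and 4 had that many in none.

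Ratios of chains within a library were steadier than their levels, among libraries with at least 20 reads of each gene. COL6A1 to COL6A2 lay between 0.77 and 1.11 in OA and between 0.73 and 1.07 in healthy fluid. COL1A1 to COL1A2, which assemble into one molecule, lay between 0.82 in OA_9570 and 1.95 in OA and between 0.90 and 1.74 in healthy fluid. COL3A1 to COL1A1 lay between 0.33 and 0.66 in OA and 0.34 and 0.63 in healthy fluid. COL6A3 to COL6A1 stood apart from these. It was 0.24 in OA_1038, 0.90 in OA_2615, 0.80 in OA_3850, 0.85 in OA_9350 and 0.53 in OA_9570, against 0.12 to 0.41 in healthy fluid with a median of 0.20. OA_9570, the library with few collagen reads, lay between the highest healthy ratio of 0.41 and the OA ratios of 0.80 to 0.90. OA_1038 lay within the healthy range. COL4A1 to COL4A2 lay between 0.40 and 0.72 in the 4 OA horses with 20 reads of each and between 0.21 and 0.57 in 10 healthy horses. OA_9570 was left out of this ratio, with COL4A1 at 0 and COL4A2 at 179. The range given therefore does not cover the OA library where the 2 chains differed most. COL5A1 to COL5A2 lay between 1.84 and 3.17 in OA and between 1.95 and 8.00 in the 9 healthy horses with enough reads. These ratios are descriptions with no test.

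**Figure D4:**
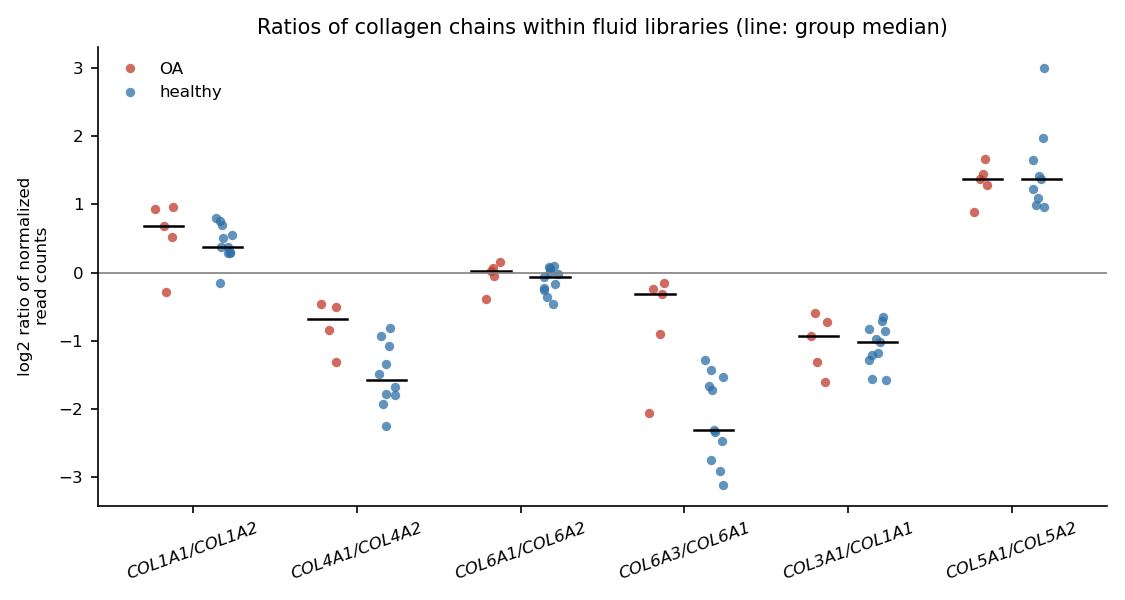
Log2 ratio of normalized read counts of collagen chains (y axis) in fluid libraries with at least 20 reads of each gene, for OA (red) and healthy horses (blue), with a line at each group median. The COL6A3 to COL6A1 ratio has a median of 0.80 in OA and 0.20 in healthy fluid (log2 of -0.32 and -2.31), while the COL6A1 to COL6A2 ratio stays near 1 in both.

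The other genes of the collagen pathway were read from lists of makers, carriers, fibril partners, receptors and breakers. Over all genes tested in fluid 14.4% rose and 13.6% fell, with a median change of 0.08, and each list below is to be read against these. Of 18 tested genes that fold and modify collagen in the cell, 11 rose in OA fluid and none fell, with a median change of 1.57. CRTAP, part of the prolyl 3-hydroxylase complex, averaged 4463 ± 1944 in OA and 1162 ± 350.0 in healthy fluid (SD, n = 5 and 11), a change of 1.89 (SE 0.26, limma adjusted p = 5e-04). PLOD2, which hydroxylates telopeptide lysines for cross-links, changed by 2.99 (limma adjusted p = 0.000679), P4HA2, a prolyl 4-hydroxylase subunit, by 1.62 (limma adjusted p = 0.00188) and P3H4 by 3.22 (limma adjusted p = 0.00388). For CRTAP and PLOD2 the lowest OA horse, at 2625 and 1022, lay above the highest healthy horse, at 1796 and 796. Of 16 genes of procollagen export, cleavage and cross-linking, 7 rose and KLHL12, a ubiquitin ligase adaptor that enlarges transport coats, fell (-0.43, limma adjusted p = 0.0188). The median was 1.91, and the smallest p were those of the cleavage enhancer PCOLCE2 (4.41, limma adjusted p = 0.00354) and the N-proteinase ADAMTS3 (4.33, limma adjusted p = 0.00542). SAR1B, which forms the large transport coats for procollagen, and LOXL3, a lysyl oxidase, rose by 0.77 and 1.64 (limma adjusted p = 0.00969 and 0.017). Of 14 fibril-associated proteins 7 rose (median 3.72), among them SPARC (3.09), PRELP (4.42), OMD (3.85) and FMOD (4.57), which bind collagen outside the cell.

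Without OA_2615 the folding list held 7 called genes, the export list 3 and the fibril-associated list 2. Without OA_3850 the export list held 5 and the fibril-associated list 2, and without OA_1038 the fibril-associated list held 4. Without OA_9570 the fibril-associated list held 12. Over all genes 18%, 19.8%, 22.9% and 33.4% were called without OA_2615, OA_3850, OA_1038 and OA_9570. Of 13 collagen receptors CD36, a scavenger receptor that binds collagen, rose (1.99, limma adjusted p = 0.0236) and ITGA1, the integrin chain of memory T cells and fibroblasts, fell (-1.27, limma adjusted p = 0.00909). The median of the receptors was -0.38, and their count was 1 without OA_3850 and 4 without OA_9570 or ORC_205. None of 9 collagen-degrading enzymes passed the threshold, but 4 did without OA_9570, 2 without ORC_188 and 1 without OA_1038, OA_9350, ORC_196, ORC_200, ORC_202 or ORC_205. The pair of highest mean, the lysosomal protease CTSB and the gelatinase MMP9, changed by 1.03 and 1.63 (limma adjusted p = 0.184 and 0.094).

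Markers of other cells were set beside the collagen genes. For every marker list in fluid, the shares over all genes were 14.4% higher and 13.6% lower. The share called was 18% to 22.9% without OA_1038, OA_2615, OA_3850 or OA_9350 and 33.4% without OA_9570. It was 27.8% without ORC_188 and 29.3% without ORC_205. Calls over all genes also fell without ORC_192, ORC_196, ORC_200, ORC_201, ORC_208 or ORC_209. In that order 1651, 1846, 1704, 1620, 1815 and 1714 were called higher, against 2006 with every library kept. Those called lower were 1631, 1770, 1698, 1600, 1760 and 1697, against 1893. Of 14 synovial fibroblast markers 6 rose and none fell (median 3.23), among them the BMP antagonist GREM1 (4.45), the transcription factor PRRX1 (5.11), UGDH, an enzyme of hyaluronan synthesis (1.17), and the surface protein PDPN (3.81). The count was 2 without OA_1038, OA_2615 or OA_3850, 3 without ORC_200 or ORC_209, 11 without ORC_188 and 12 without OA_9570, while 28.1% of all genes were called with every library kept. The sum of the whole list ran from 34574 to 80374 in OA and from 7741 to 43538 in healthy fluid, and S100A4, a gene that leukocytes also express, made up most of it, with 26572 to 60002 in OA and 6413 to 40648 in healthy fluid. The sum without S100A4, chosen after its values were seen, was 24261 in OA_1038, 27302 in OA_2615, 18934 in OA_3850, 8002 in OA_9350 and 1008 in OA_9570. It ran from 1327 through a median of 2890 to 8897 in ORC_205 in healthy fluid. OA_9570 was the lowest of all fluid libraries in this sum and 3 OA libraries lay above every healthy library. In OA_9570 CLIC5 and UGDH made up 342 and 427 of the 1008, and both genes had reads in every PBMC library. The sum therefore need not rank libraries by fibroblast content, which was not tested. Taken singly, OA_9570 was below every healthy library in CLIC5 and PDGFRA. Some healthy library lay below it in THY1 (90.0 against a healthy minimum of 3.88), PDGFRB, HAS1, PRRX1, TWIST1, FAP and UGDH. In OA_9570, 5 of the 14 markers were at 0 (PDPN, PDGFRA, CDH11, TWIST2 and GREM1), as against none in OA_1038, OA_2615 and OA_3850, 1 in OA_9350 and 0 to 5 in healthy libraries.

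Pericyte and smooth muscle markers summed to 5784 to 10239 in OA and 358 to 2526 in healthy fluid, where the groups did not overlap, and 3 of 8 rose (CSPG4, ACTA2 and RGS5). OA_9570, with few collagen reads, held 7943 of these, second to OA_3850 among all fluid libraries. The count was 1 without OA_3850 and 6 without OA_9570. Chondrocyte markers summed to 124 to 2374 in OA and 119 to 364 in healthy fluid. In the chondrocyte list 3 of 6 tested genes rose (ACAN, HAPLN1 and COMP), and CNMD had a mean below 1. That count was 1 without OA_1038, OA_2615, OA_3850, OA_9350, ORC_192, ORC_200, ORC_208 or ORC_209. Of 9 tested endothelial markers VWF rose, and none did without OA_9350. T cell markers summed to 8051 to 34697 in OA and 35510 to 128847 in healthy fluid, again without overlap, and 10 of 11 fell. Macrophage markers summed to 42438 to 499419 in OA and 9356 to 529601 in healthy fluid, and CD163 rose of 8. Of 8 B cell and plasma cell markers 2 fell, of 4 epithelial markers 1 rose and 1 fell, and none of 3 adipocyte, 3 platelet and 4 neutrophil markers passed the threshold. With 1 library left out the macrophage count lay between 0 (OA_2615, OA_3850 or OA_9350) and 3 (OA_1038 or ORC_205). The B cell and plasma cell count lay between 0 (OA_2615, OA_9350, ORC_188, ORC_192, ORC_196, ORC_200, ORC_201 or ORC_208) and 4 (ORC_205). The epithelial count was 0 without OA_3850 and 1 without OA_2615 or OA_9350. The T cell count lay between 9 and 11. The part of these cells in the collagen changes was not tested.

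In PBMC most collagen genes were near the limit of detection and none rose. Of 37 genes 15 were tested, 14 had at least 10 reads in no library, and 5 (COL2A1, COL4A2, COL9A2, COL11A2 and COL18A1) had that many in every library. COL28A1 fell, 1 of 15 (6.67%), against 5.4% of all 13072 genes in either direction, 3.2% higher and 2.2% lower. Changes were above 0 in 9 of 15, against 52% of all genes, with a median of 0.13 for the collagen genes and 0.02 for all genes. No tested collagen gene had groups that did not overlap, against 1.05% of all genes. Unadjusted p was below 0.05 for 3 higher and 3 lower collagen genes. By edgeR 0 were called higher and 2 lower, by DESeq2 1 and 3 and with library weights 0 and 3. Over all genes 6.17%, 12.9% and 17.7% were called in either direction. The collagen sum was 1071 to 1598 in OA and 821 to 1494 in healthy PBMC. The median log2 SD of the tested collagen genes was 0.80 in OA and 0.96 in healthy PBMC, against 0.27 and 0.37 for all genes tested.

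COL28A1, a short collagen with von Willebrand factor A domains, had a value of 0.847 in OA_9350 and 0 in the other 5 OA horses. In healthy PBMC it was 52.0 in ORC_188, 37.1 in ORC_192, 3.12 in ORC_197, 3.36 in ORC_200, 11.9 in ORC_202, 70.6 in ORC_205, 0 in ORC_207, 8.03 in ORC_208 and 3.88 in ORC_209. Healthy horses other than ORC_207 thus lay above the OA horses, 3 of them by far. All OA libraries together held 1 read among 200.8 M and healthy libraries 182 reads among 247.9 M. The ratio of healthy to OA per read sequenced was 147 (95% interval 26.1 to 5854, from counting error only). This interval pools reads over horses and leaves out the spread between them, a log2 SD of 2.03 in healthy PBMC. It therefore does not measure how surely the groups of horses differ. The fitted change was -3.24 (SE 0.84, limma adjusted p = 0.0383), a value that depends on the added 1. The gene passed the filter only through the healthy horses, and the call was lost without OA_2615, OA_3850, OA_9350, OA_9570, ORC_188, ORC_192, ORC_200 or ORC_208 (adjusted p of 0.0518 to 0.0976) and with a pseudocount of 5 (0.0697). The change itself lay between -3.39 and -2.94 in those omissions. Calls over the whole table also dropped, to 0.252%, 0.268% and 0.237% of all genes without OA_3850, OA_9350 and OA_9570. It lies on chromosome 4 from 41190190 to 41369454 (EquCab3.0) and overlaps an unnamed gene that averaged 2.50 in OA and 0.60 in healthy PBMC.

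**Figure D5:**
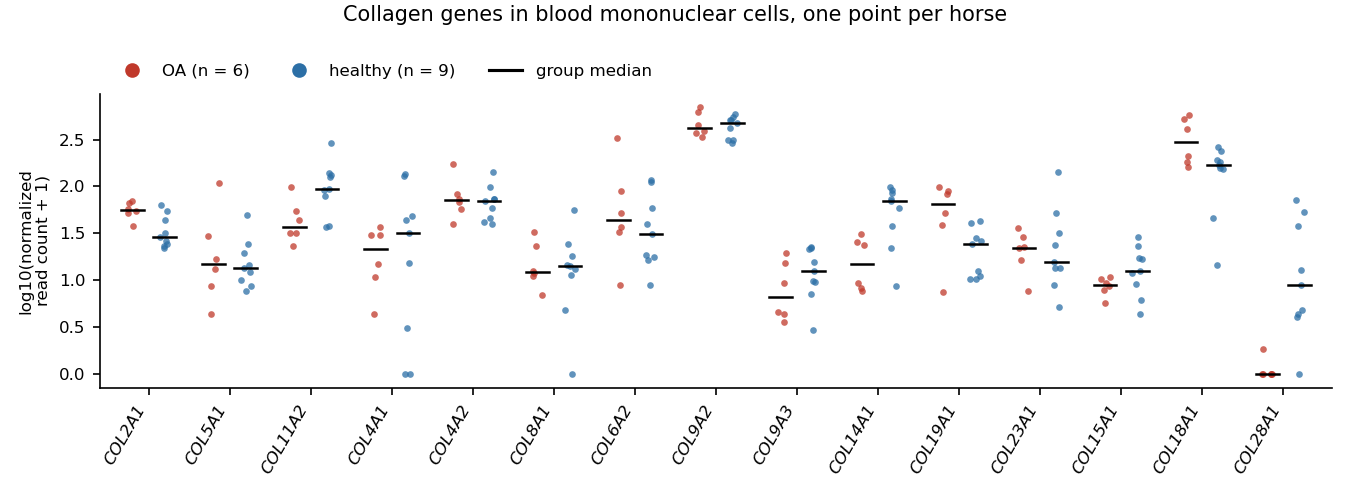
Normalized read count (log10 of the value + 1, y axis) of the 15 collagen genes tested in PBMC, ordered by class, with a point per horse for OA (red, n = 6) and healthy horses (blue, n = 9) and a line at each group median. Groups overlap in every gene; COL28A1 is at or near 0 in all OA horses and spread from 0 to 70.6 in healthy horses.

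COL9A2 was high in blood in every horse, at 338 to 700 in OA with a median of 424 and at 286 to 595 in healthy PBMC with a median of 478. The groups overlapped, and the change was 0.12 (SE 0.20, limma adjusted p = 0.74). COL18A1 ran from 161 through a median of 311 to 581 in OA and from 13.8 through 167 to 262 in healthy PBMC, with 3 OA horses above all healthy horses (1.31, limma adjusted p = 0.155). COL11A2 ran from 22.5 through 36.9 to 96.6 in OA and from 35.9 through 91.9 to 289 in healthy PBMC (-1.18, limma adjusted p = 0.102). These values are uncertain, as in fluid, since BRD2 averaged 15364 in OA and 16717 in healthy PBMC. COL14A1 ran from 6.78 through 15.7 to 30.0 in OA and from 7.74 in ORC_188 through 69.6 to 96.7 in healthy PBMC. All OA horses lay below the other healthy horses but ORC_209, at 21.3. The change was -1.71 (SE 0.53, limma adjusted p = 0.0671), with an edgeR adjusted p of 0.0472 and limma adjusted p of 0.0446 without OA_1038 and 0.0285 without ORC_188. COL19A1 ran from 6.57 in OA_1038 through 66.5 to 97.9 in OA and from 9.25 through 23.1 to 41.7 in healthy PBMC. For COL19A1 4 OA horses lay above all healthy horses (1.26, limma adjusted p = 0.162). It was called higher by DESeq2 (adjusted p = 0.0351) and by limma without OA_1038 (adjusted p = 0.0217).

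COL4A2 ran from 38.5 to 174 in OA and from 39.0 to 143 in healthy PBMC (0.17, limma adjusted p = 0.777). COL6A2 ran from 7.87 in OA_3850 to 324 in OA_2615 and from 8.03 to 115 in healthy PBMC (0.61, limma adjusted p = 0.603), while its partner COL6A1 was at 0 in every horse but OA_1038, at 0.939. COL23A1 ran from 6.78 to 34.9 in OA and from 4.20 to 142 in healthy PBMC (-0.06, limma adjusted p = 0.96). The bulk fibril chains were all but absent. COL1A1 was at 0 in all 6 OA horses and in 7 of 9 healthy horses, with 5.59 in ORC_200 and 10.6 in ORC_202. COL3A1 was at 10.1 and 30.4 in the same 2 horses and at most 0.874 in OA.

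In the pathway lists of PBMC, CRTAP and PLOD1 rose of 16 folding genes (0.72 and 0.99), BMP1 and ADAMTS2, the C- and N-proteinases of procollagen, of 10 export genes (0.81 and 1.38), and CTSB of 5 degrading enzymes (0.78). None of 3 fibril-associated proteins, 13 receptors and 4 fibroblast markers passed the threshold, and PDPN, PDGFRA, TWIST2, FAP and GREM1 had means below 1. Among markers of other cells ROBO4 rose of 8 endothelial, MERTK of 7 macrophage and S100A12 of 5 neutrophil genes, JCHAIN and POU2AF1 fell of 8 B cell and plasma cell genes, and none of 11 T cell genes passed the threshold. Without OA_3850, OA_9350 or OA_9570 none of the folding, export and degrading genes was called, and 33, 35 and 31 of the 13072 genes in all were, against 706 with every library kept. With every library kept 3.2% of all genes rose and 2.2% fell in PBMC. OA libraries of PBMC were also deeper, and the part of depth in the list calls was not tested.

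The OA effect in fluid minus that in PBMC was tested for the 15 genes that reached the filter in each table. For 3 genes the difference was higher (10.3% of 12733 genes) and for 2 lower (11.9%), so 5 of 15 against 22.3% of all genes. COL14A1 differed by 5.21 (SE 1.42, limma adjusted p = 0.0102), from changes of 3.49 in fluid and -1.71 in PBMC. COL9A2 differed by -1.96 (SE 0.41, limma adjusted p = 0.00195), from -1.84 in fluid and 0.12 in PBMC. These 2 held without any 1 of the 31 libraries. COL2A1 differed by -2.13 (SE 0.69, limma adjusted p = 0.0269), from -1.37 in fluid and 0.75 in PBMC. It had adjusted p of 0.0943 and 0.0555 without the fluid of OA_3850 and OA_9570.

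COL15A1 differed by 3.22 (SE 1.02, limma adjusted p = 0.0237), from 2.69 in fluid and -0.53 in PBMC. It passed the PBMC filter only through the healthy horses, as did COL9A3 and COL28A1, so its entry into this test depended on the group where it was higher. COL5A1 differed by 3.70 (SE 1.35, limma adjusted p = 0.0473). The fit on differences within the 13 horses with both samples (the replicate block) called 3 of 15, against 24.2% of all genes. It kept COL14A1 (5.39, limma adjusted p = 0.0333), COL9A2 (-1.80, limma adjusted p = 0.00393) and COL2A1 (-2.43, limma adjusted p = 0.038), while COL5A1 (3.88, limma adjusted p = 0.112) and COL15A1 (2.93, limma adjusted p = 0.0717) did not pass. COL15A1 was also lost without the fluid of OA_1038, OA_2615 or OA_3850 (adjusted p of 0.0594 to 0.0715). COL5A1 was called without 9 of the 31 libraries and lost without the other 22, among them 4 fluid OA libraries (adjusted p of 0.0505 to 0.135).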

How the data were processed

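Per the submitters' processing notes, reads were handled in Partek with cutadapt, STAR 2.7.3, HTSeq and DESeq against EquCab3.0. The deposited values are a signal, read counts divided by a size factor per library, in 1 table per tissue that the authors normalized separately. No column of another sample was used (0 columns). Values were whole multiples of 1 read, within 0.1 read, for 99.85% to 99.98% of values per library, so whole reads were recovered, and edgeR 4.0.16 and DESeq2 1.42.0 were run on them as alternatives. Reads per library came to 25.9 to 36.3 M for fluid and 23.9 to 34.8 M for PBMC; intervals cover counting error only.

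The test was limma 3.58.1 (R 4.3.3, trend and robust) on log2(value + 1), for genes with a mean of at least 10, with Benjamini-Hochberg adjustment over all genes of a table. Log2 changes understate those of low genes. The difference between tissues was fitted over 4 group means with a weight per tissue. The collagen genes and lists were chosen with earlier results of these data known. Values were given for each called collagen gene and for the gene of highest mean in each class, and from each other list for up to 4 called genes of smallest p or the pair of highest mean. No pair of libraries of a group agreed within sampling noise. The pairing of fluid and PBMC rests on the horse numbers of the labels. Deviations of 13 of 13 pairs correlated over 0.1 (0.12 to 0.39). Pairs of unlike numbers were not correlated, so these values cannot show by themselves that the numbers mark the same animal. Coordinates come from the PBMC table. In data simulated for fluid, 44% of 2-fold and 80% of 4-fold changes were recovered by limma over 13780 genes, and for PBMC 61% and 88% over 12985 genes. The changed genes were drawn at random from all genes, with a capped spread. Collagen genes of fluid had a median log2 SD of 2.54 in OA and 2.44 in healthy horses, against 0.58 and 0.54 for all genes. These rates therefore do not carry over to the collagen genes. Scaling, filter, pseudocount, library weights, the replicate block and leaving out each library were the alternatives. The cytokine assays were not used here.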

Additional observations from a re-analysis of the deposited data

Results flagged for a closer look

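In OA fluid, OA_9570 stood far below the other 4 OA horses for 6 collagen genes. Its normalized read count was 302 for COL1A1, 25.4 for COL27A1, 179 for COL4A2, 393 for COL6A1, 513 for COL6A2 and 56.7 for COL18A1. In OA PBMC, OA_9350 stood above the others for COL28A1, at 0.847, which is 1 read. Of 37 sets of values of a collagen gene within a group of 4 to 10 horses, 7 held such a library. In 6 of the 7 it was the same library, OA_9570, so these sets were not independent. The COL28A1 set held a single read, which is flagged whenever the other libraries of the group have none. The chance rate of about 1 in 20 is for independent sets, so the count of 7 cannot be read against it.

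The OA effect differed between fluid and PBMC, by the test of the difference itself, for COL2A1 (-2.13), COL5A1 (3.70), COL9A2 (-1.96), COL14A1 (5.21) and COL15A1 (3.22), all on the log2 scale. Fluid and blood share animals, and with the replicate block COL5A1 (limma adjusted p = 0.112) and COL15A1 (limma adjusted p = 0.0717) did not pass. COL15A1 also entered the test only through its level in healthy PBMC.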

How the results depend on the processing

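The 8 collagen genes called in fluid became 14 by edgeR, 21 by DESeq2 and 25 with library weights, and 2 to 22 when 1 library was left out. The 1 called in PBMC became 0 with a pseudocount of 5, 0 with a mean of at least 50, 2 by edgeR, 4 by DESeq2 and 3 with library weights, and 0 to 3 when 1 library was left out. The 5 called in the difference became 3 with the replicate block, 8 with a mean of at least 1 and 2 with a mean of at least 50, and 2 to 7 when 1 library was left out. With a mean of at least 50, COL28A1 (PBMC mean of 12.7) was no longer tested in PBMC. The same filter took COL2A1, COL5A1, COL14A1 and COL15A1 (PBMC means of 42.9, 21.9, 42.4 and 11.2) out of the difference test. These drops are therefore genes left untested and not calls lost in a fit. With a mean of at least 1, COL1A1, COL5A2, COL12A1 and COL16A1 entered the difference test and were called. The cause of the other shifts was not tested. Scaled to equal totals, 1312 genes of fluid rose and 2764 fell, against 2006 and 1893, and the median change of all genes moved to -0.12 from 0.08.

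No called gene changed direction. Changes that were not called turned sign as follows. In fluid COL28A1 was -0.00072 with equal totals and -1.01 with library weights, and lay between -0.67 and 1.08 when 1 library was left out; COL23A1 lay between -0.70 and 0.62. In PBMC COL4A1 was -0.24 with a pseudocount of 5, -1.11 by edgeR and -1.12 by DESeq2, and lay between -0.37 and 0.52 when 1 library was left out. COL8A1 was -0.11 by edgeR and -0.10 by DESeq2, and lay between -0.13 and 0.60. COL9A2 was -0.062 with library weights, and lay between -0.0017 and 0.21. COL5A1 lay between -0.32 and 0.61, COL4A2 between -0.083 and 0.35 and COL23A1 between -0.31 and 0.29. The difference of COL23A1 between tissues was 0.53 with the replicate block, and lay between -0.64 and 0.68 when 1 library was left out. In PBMC 22 of 37 collagen genes were below the filter, at 23.9 to 34.8 M reads per library, and in fluid 7 of 41, at 25.9 to 36.3 M; the part of depth was not tested.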
